A study of Mus musculus with 12 samples.

Results

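The sterol and fatty acid synthesis genes are 36 genes of the mouse genome, described here across 4 groups of LN T cells. They were chosen by symbol from the 49585 genes of the count table, as regulators of the SREBP pathway, enzymes of cholesterol synthesis, sterol transporters and enzymes that make, desaturate and elongate fatty acids. Of the 36 genes, 35 passed edgeR's filter on low counts and were tested among 13118 genes. *Fads2*, a fatty acid desaturase, was not tested, since it had 3 and 2 counts in replicates 1 and 3 of B6 CD4+ T cells and 0 in the other samples.

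RNA-seq was made from 12 samples of LN T cells, 3 from each of 4 groups. The B6 CD4+ and B6 CD8+ T cells came from C57BL/6 mice with unaltered co-receptor genes. The CD8.1 and CD8.2 T cells came from homozygous CD8Dual mice, in which both *Cd4* loci encode CD8α.1 and CD8β in place of CD4 and both *Cd8* loci are intact and encode CD8α.2 and CD8β. CD8.1 T cells carry the co-receptor from the *Cd4* locus, and CD8.2 T cells that from the *Cd8* locus, so the strains differ at the *Cd4* locus also in cells that do not use it. All groups were male mice 6 to 10 weeks old per the labels, untreated as far as these say, and each sample was a pool of cells sorted for TCRβ and CD62L. The study's methods add the absence of CD44 to the sort, a gate that the labels do not name. Nothing in the labels says that the 3 samples of a group came from separate mice, so P values measure the spread between these samples, which may be technical.

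Cholesterol is built from acetyl-CoA, first through the mevalonate arm to farnesyl diphosphate and then through squalene and lanosterol. The transcription factor SREBP2, the product of *Srebf2*, is held in the endoplasmic reticulum by SCAP and the INSIG proteins while sterols are abundant, and when they are scarce it is released to turn on the genes of this pathway, *Insig1* among them. LXR acts the other way, turning on the cholesterol exporters ABCA1 and ABCG1 and, in many tissues, *Srebf1*, whose product drives fatty acid synthesis. The synthesis of cholesterol and of fatty acids is known to be raised when T cells are activated and divide, and resting T cells run it at a low level.

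Expression is given as CPM, counts relative to the TMM-adjusted size of each library. Total counts ran from 18667474 to 37110502 per sample, so that 3 counts, the smallest value taken as detectable, were worth 0.0875 to 0.167 CPM. PCR copies of a molecule are counted as well, so such limits reflect counting error alone. The 36 genes took 0.164% to 0.201% of the counts. A gene was called higher or lower at a Benjamini-Hochberg adjusted P under 0.05 over all 13118 genes, by edgeR's quasi-likelihood test, with no limit on the fold. Log2 fold changes are the first group minus the second and are given with their SE.

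Before any comparison, the samples were checked against their labels. Lists of T cell genes (7 genes, summed 3968 to 4765 CPM) and naive T cell genes (6 genes, 4588 to 5321 CPM) were high in all 12 samples. *Cd4*, *Zbtb7b* and *Cd40lg* together had 1187 to 1271 CPM in B6 CD4+, 253.6 to 313 CPM in CD8.1, 1.78 to 2.46 CPM in B6 CD8+ and 4.55 to 4.98 CPM in CD8.2 T cells. Replicate 1 of the CD8.1 T cells and replicate 3 of the CD8.2 T cells stood apart from the others of their groups. Their chi-square per gene against those was 31.5 and 33 for the former and 57.9 and 87.1 for the latter, against 8.76 to 21.2 for all other pairs within a group. In CD8.2 replicate 3, 4 structural RNAs summed to 35370 CPM, against 968.5 to 9542 CPM in the other samples. Calls lost without either of these samples are marked below, by that sample or by the number of alternative analyses that lost them.

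The difference shared by the most genes lay in the squalene to cholesterol arm, the 11 enzymes that turn farnesyl diphosphate into cholesterol. In B6 mice 7 of the 11 were higher in CD4+ than in CD8+ T cells and none was lower. In CD8Dual mice CD8.1 cells had higher levels of 8 of the 11 than CD8.2 cells, and none was lower. Among all tested genes, 11.4% were called higher and 11.7% lower in B6 CD4+ T cells, and 14.9% were called higher and 13.8% lower in CD8.1 T cells. Over the 11 genes the median log2 fold change was 0.44 in B6 mice and 0.48 in CD8Dual mice, beside −0.001 and −0.005 over all tested genes. Summed over the 11 genes, the arm had 285.9, 287.7 and 309.4 CPM in the B6 CD4+ samples, 223.9, 235.6 and 218.9 CPM in the B6 CD8+ samples, 385.4, 379.2 and 336.4 CPM in the CD8.1 samples and 244.2, 277.0 and 261.3 CPM in the CD8.2 samples. No 2 groups overlapped in this sum. It was highest in CD8.1 T cells and lowest in B6 CD8+ T cells. In samples of pooled cells, a change in the share of cells that express a gene and a change in its RNA per cell cannot be told apart.

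**Figure D1:**
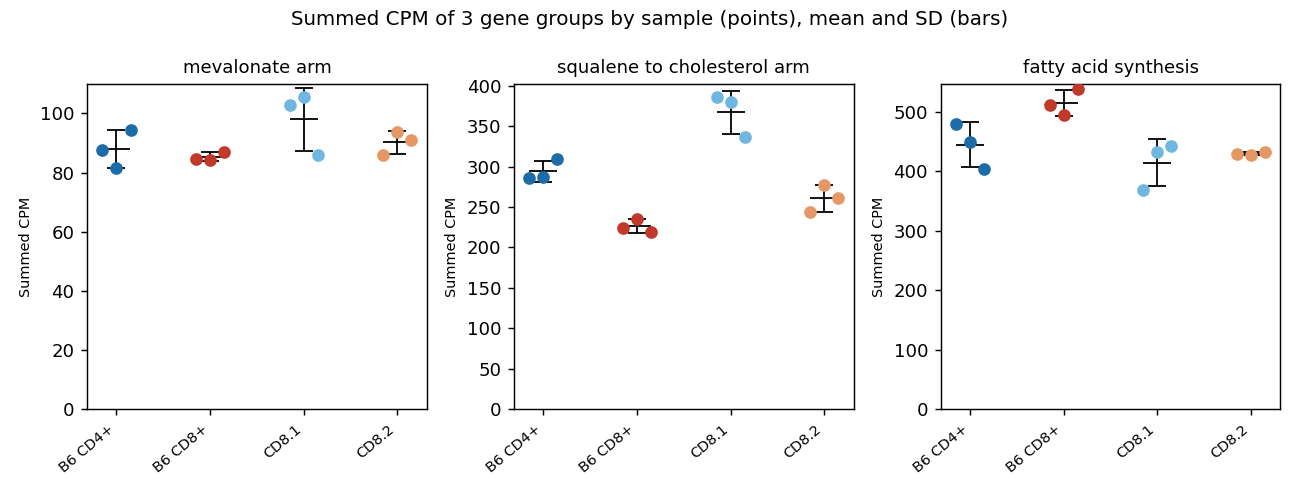
Summed CPM (vertical axis, from 0) of the mevalonate arm, the squalene to cholesterol arm and the fatty acid synthesis genes in the 4 groups. Points are the 3 samples, the horizontal line is the mean and the bars are the SD. In the middle panel the lowest CD8.1 sample, at 336.4 CPM, lies above the highest B6 CD4+ sample, at 309.4 CPM, and no groups overlap, while the mevalonate sums of all groups lie between 81.7 and 105.6 CPM.

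*Sqle* (chromosome 15, 59315077 to 59331192, plus strand, GRCm38) encodes squalene epoxidase, the enzyme that adds the oxygen later found in cholesterol's hydroxyl group and a step that can limit the pathway. It showed the largest fold of the 35 tested genes in B6 mice, in CD8Dual mice and between CD8.2 and B6 CD8+ cells. *Sqle* had 15.6, 14.8 and 15.01 CPM in the B6 CD4+ samples, 4.67, 5.56 and 4.09 CPM in the B6 CD8+ samples, 25.1, 19.1 and 18.9 CPM in the CD8.1 samples and 8.301, 11.9 and 10.1 CPM in the CD8.2 samples. No groups overlapped. Between B6 CD4+ and CD8+ T cells the fold was 3.15 (log2 fold change 1.66, SE 0.16, adjusted P = 1.17e-06). It was also higher in CD8.1 cells than in CD8.2 cells (log2 fold change 1.06, SE 0.15, adjusted P = 6.81e-05). Both CD8Dual groups exceeded their B6 counterparts, CD8.2 T cells over B6 CD8+ T cells (log2 fold change 1.07, SE 0.16, adjusted P = 0.000917) and CD8.1 over B6 CD4+ T cells (log2 fold change 0.48, SE 0.14, adjusted P = 0.0428). The last call was lost in 11 of 18 alternative analyses, among them the fit without CD8.1 replicate 1, the highest of the CD8.1 samples.

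*Cyp51* (chromosome 5, 4081145 to 4104746, minus strand) encodes lanosterol 14α-demethylase, which takes the first methyl group off lanosterol. *Cyp51* was measured at 32.1, 32.4 and 30.6 CPM in the B6 CD4+ samples, 14.2, 16.6 and 18.2 CPM in the B6 CD8+ samples, 47.5, 39.3 and 32.4 CPM in the CD8.1 samples and 20.99, 25.6 and 23.6 CPM in the CD8.2 samples. The groups were again without overlap, in the order CD8.1, B6 CD4+, CD8.2, B6 CD8+. In B6 mice it was higher in CD4+ T cells (log2 fold change 0.96, SE 0.13, adjusted P = 4.9e-05), and in CD8Dual mice in CD8.1 T cells (log2 fold change 0.77, SE 0.13, adjusted P = 0.000354). CD8.2 T cells were above B6 CD8+ T cells (log2 fold change 0.52, SE 0.13, adjusted P = 0.0259), and CD8.1 T cells did not pass the test against B6 CD4+ T cells (log2 fold change 0.33, SE 0.13, adjusted P = 0.103). The call between CD8.2 and B6 CD8+ cells was lost in 4 of 18 alternative analyses, among them the fit without CD8.2 replicate 3.

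*Sc5d* (chromosome 9, 42251595 to 42264256, minus strand) and *Dhcr7* (chromosome 7, 143823145 to 143848410, plus strand) encode the desaturase and the reductase of the last steps, and DHCR7 also uses up the sterol from which vitamin D is made. *Sc5d* stood at 37.8, 39.6 and 39.6 CPM in the B6 CD4+ samples, 24.7, 25.9 and 25.3 CPM in the B6 CD8+ samples, 51.6, 44.9 and 42.1 CPM in the CD8.1 samples and 26.6, 28.7 and 28.4 CPM in the CD8.2 samples. *Dhcr7* gave 49.9, 51.6 and 62.01 CPM in the B6 CD4+ samples, 39.96, 40.2 and 40.2 CPM in the B6 CD8+ samples, 62.2, 71.6 and 63.2 CPM in the CD8.1 samples and 45.6, 46.3 and 49.02 CPM in the CD8.2 samples. All 3 samples of each group were apart from those of every other group for both genes. *Sc5d* was higher in CD4+ T cells (log2 fold change 0.62, SE 0.09, adjusted P = 5.09e-05) and in CD8.1 T cells (log2 fold change 0.73, SE 0.08, adjusted P = 1.21e-05). *Dhcr7* was higher in CD4+ T cells (log2 fold change 0.44, SE 0.09, adjusted P = 0.00177) and in CD8.1 T cells (log2 fold change 0.48, SE 0.09, adjusted P = 0.000865). Neither passed the test between CD8.1 and B6 CD4+ cells, where the log2 fold changes were 0.24 and 0.27, or between CD8.2 and B6 CD8+ cells, where they were 0.14 and 0.23.

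*Fdft1* (chromosome 14, 63145150 to 63179578, minus strand) encodes squalene synthase, the enzyme that commits farnesyl diphosphate to sterols. *Fdft1* reached 20.2, 20.1 and 22.3 CPM in the B6 CD4+ samples, 14.3, 15.5 and 15.3 CPM in the B6 CD8+ samples, 28.5, 28.9 and 25.3 CPM in the CD8.1 samples and 17.7, 18.7 and 17.2 CPM in the CD8.2 samples. It was higher in B6 CD4+ T cells (log2 fold change 0.47, SE 0.09, adjusted P = 0.00101), in CD8.1 against CD8.2 T cells (log2 fold change 0.63, SE 0.09, adjusted P = 7.78e-05) and in CD8.1 against B6 CD4+ T cells (log2 fold change 0.40, SE 0.09, adjusted P = 0.0093). The last call was lost in 2 of 18 alternative analyses. No groups overlapped. Of the 50-base stretches of its exons, 26.5% also occur elsewhere in the annotated transcripts, and 18.3% of its exon bases overlap other genes, here *Ctsb* on the other strand, so reads of these could have been assigned to either gene.

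**Figure D2:**
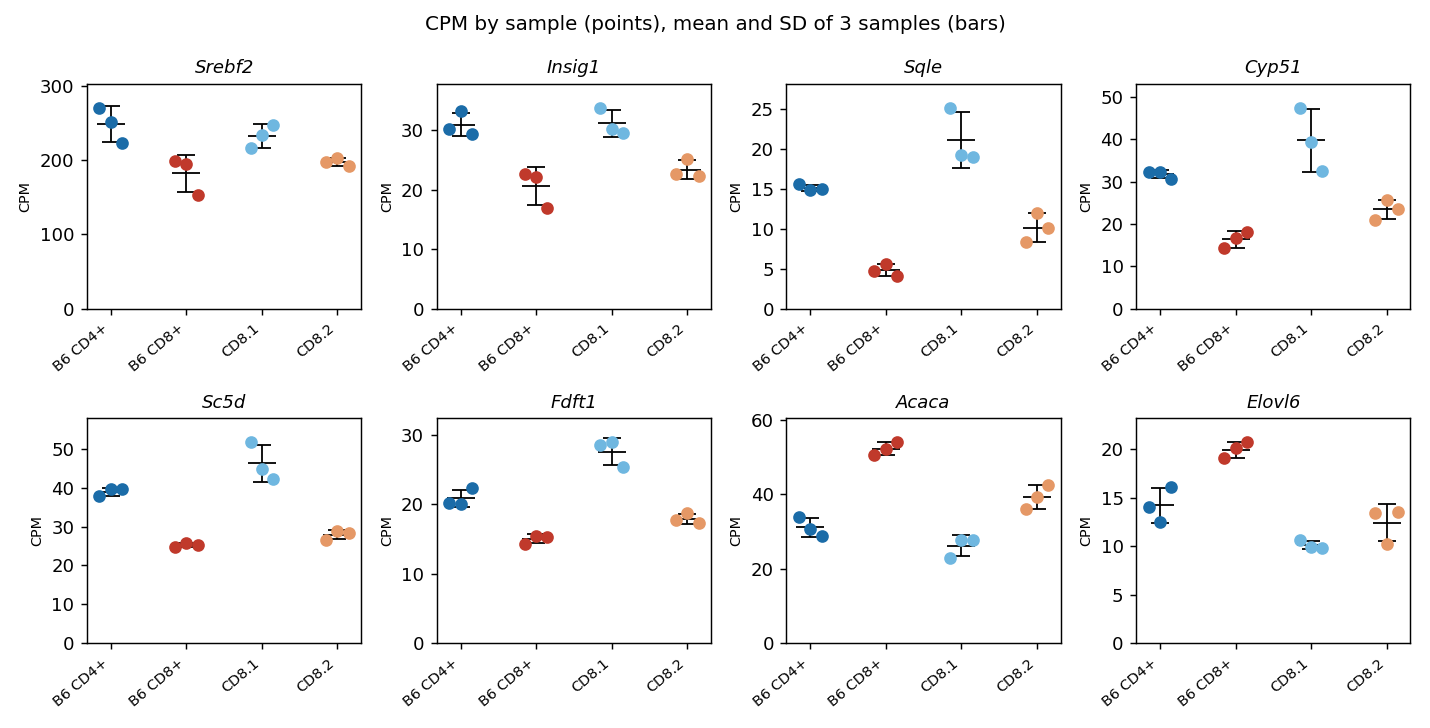
CPM (vertical axes, from 0) of 8 genes in the 4 groups, with a point for each of 3 samples, a line for the mean and bars for the SD. *Sqle*, *Cyp51*, *Sc5d* and *Fdft1* have no overlap between any of the groups and stand highest in CD8.1 T cells, while *Acaca* stands highest in B6 CD8+ T cells, at 50.4 to 53.9 CPM.

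*Tm7sf2* encodes a sterol reductase that follows CYP51. *Tm7sf2* had 6.37, 4.61 and 6.805 CPM in the B6 CD4+ samples, 3.52, 3.78 and 3.801 CPM in the B6 CD8+ samples, 6.21, 7.56 and 5.13 CPM in the CD8.1 samples and 3.49, 4.72 and 3.76 CPM in the CD8.2 samples. CD8+ and CD8.2 samples lay below the others within their strain, with *Tm7sf2* higher in B6 CD4+ T cells (log2 fold change 0.68, SE 0.19, adjusted P = 0.0181) and in CD8.1 T cells (log2 fold change 0.67, SE 0.19, adjusted P = 0.0171). Each call was lost in 3 of 18 alternative analyses, that in CD8Dual mice without CD8.2 replicate 3 among others. Of the exon bases of *Tm7sf2*, 12.1% overlap *Vps51* on the same strand.

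*Msmo1* encodes the methylsterol monooxygenase that acts on the methyl groups at carbon 4. *Msmo1* was measured at 34.7, 33.7 and 32.9 CPM in the B6 CD4+ samples, 23.7, 26.5 and 24.4 CPM in the B6 CD8+ samples, 49.4, 36.97 and 32.4 CPM in the CD8.1 samples and 28.8, 32.7 and 28.8 CPM in the CD8.2 samples. The B6 groups did not overlap, and CD8.1 replicate 3 lay within the range of the CD8.2 samples. It was higher in B6 CD4+ T cells (log2 fold change 0.44, SE 0.12, adjusted P = 0.0173) and in CD8.1 T cells (log2 fold change 0.40, SE 0.12, adjusted P = 0.0251). Each call was lost in 4 of 18 alternative analyses. The call in CD8.1 T cells was lost without CD8.1 replicate 1, the highest sample, without CD8.2 replicate 1 or 3 and with only the groups compared in the fit.

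*Ebp* encodes the isomerase that moves the ring double bond. *Ebp* stood at 48.2, 49.4 and 60.8 CPM in the B6 CD4+ samples, 53.8, 55.6 and 47.97 CPM in the B6 CD8+ samples, 65.4, 83.9 and 72.8 CPM in the CD8.1 samples and 52.5, 62.5 and 56.8 CPM in the CD8.2 samples. It differed from the genes above in that the B6 groups overlapped and their log2 fold change was 0.01 (SE 0.11, 95% confidence interval −0.229 to 0.247). CD8.1 T cells lay above all other samples. *Ebp* was higher in CD8.1 cells than in CD8.2 cells (log2 fold change 0.37, SE 0.11, adjusted P = 0.0207) and than in B6 CD4+ cells (log2 fold change 0.49, SE 0.11, adjusted P = 0.0114). The former call was lost in 3 of 18 alternative analyses, among them the fit without CD8.2 replicate 3, and the latter in 4. The remaining enzymes of the arm, *Lss* (lanosterol synthase), *Nsdhl* and *Hsd17b7* (both of which act on the carbon 4 methyl groups), were called in none of the comparisons, with log2 fold changes of −0.18 to 0.56.

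In 5 of the 11 genes (*Fdft1*, *Sqle*, *Cyp51*, *Sc5d* and *Dhcr7*) the samples stood in the order CD8.1, B6 CD4+, CD8.2 and B6 CD8+ with no overlap between neighbours, and in 7 of the 11 the group means did. Over all 13118 tested genes, 92 (0.701%) had this order without overlap and 9.54% had it by their means. The order was noticed after the values were seen, so these shares are a description, and B6 CD4+ T cells were not tested against CD8.2 T cells. The count of genes in the arm called higher was 5 to 7 in B6 mice and 5 to 8 in CD8Dual mice over all alternative analyses that kept the limit on P. Without CD8.2 replicate 3 it was 5 in CD8Dual mice, and without CD8.1 replicate 1 it was 7.

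**Figure D3:**
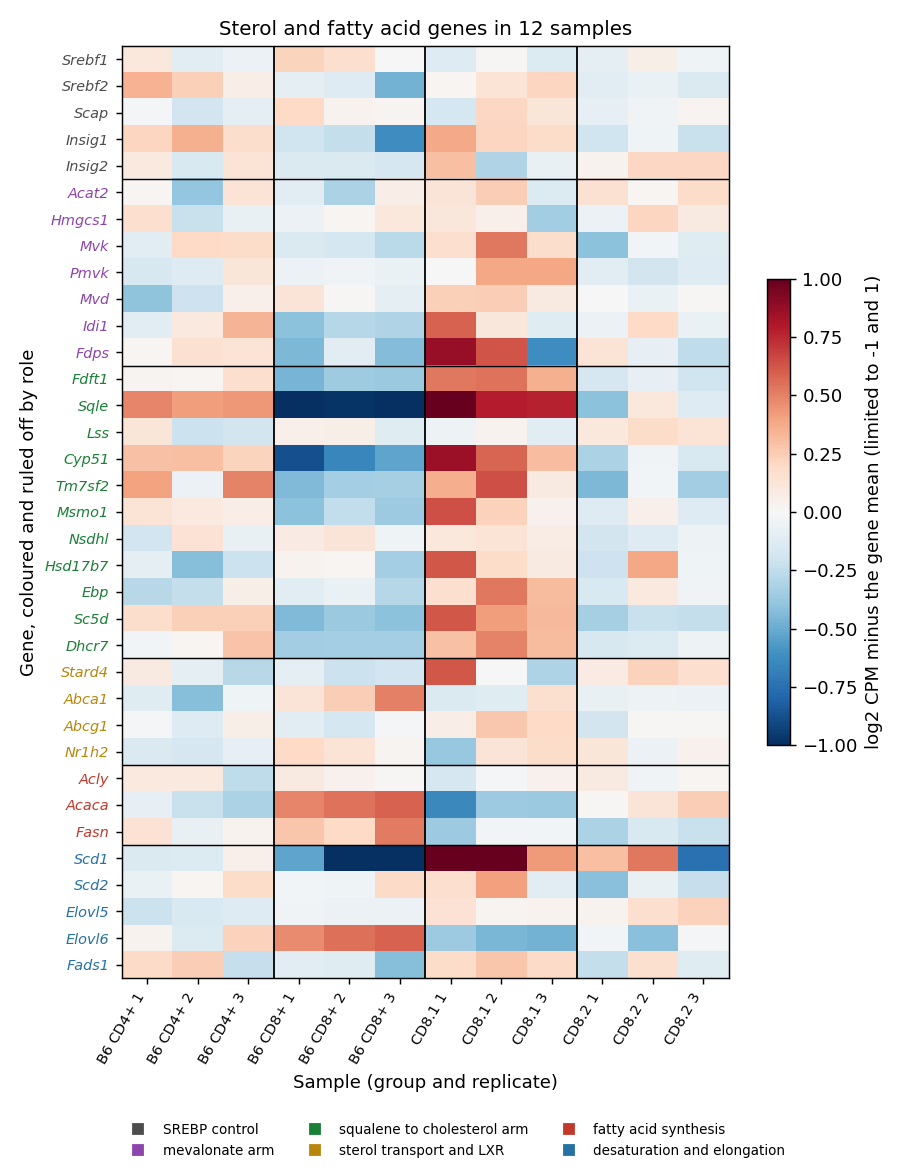
Log2 CPM minus the mean of each gene over all samples (colour, limited to −1 and 1) for the 35 tested genes (rows, ordered and coloured by role) in 12 samples (columns). The squalene to cholesterol rows from *Fdft1* to *Dhcr7* are mostly red in B6 CD4+ and CD8.1 samples and blue in B6 CD8+ and CD8.2 samples, apart from *Lss*, *Nsdhl*, *Hsd17b7* and *Ebp*, and *Acaca* and *Elovl6* run the other way within B6 mice.

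Markers of other cells were set beside the squalene to cholesterol arm, and the lists differed in how far they moved with it. A list of 7 regulatory T cell genes (*Foxp3*, *Il2ra*, *Ikzf2*, *Ctla4*, *Tnfrsf18*, *Tnfrsf4* and *Nrp1*), all of them detected in every group, summed to 167 to 247 CPM in B6 CD4+, 57.3 to 62.5 CPM in B6 CD8+, 465.4 to 518.7 CPM in CD8.1 and 57.51 to 59.95 CPM in CD8.2 T cells, so the groups with the higher squalene to cholesterol sums also had the higher regulatory T cell sums. CD8.2 and B6 CD8+ T cells, whose squalene to cholesterol sums did not overlap, had overlapping sums of that list. Cycling genes (6 genes) summed to 22.8 to 49.8, 21.9 to 96.8, 42.7 to 83.2 and 21.1 to 42.1 CPM in the same groups, and B6 CD8+ replicate 3, the highest of all in cycling genes, had the lowest squalene to cholesterol sum of all, 218.9 CPM. B cell genes (7 genes) summed to 568.4 to 614.5, 648.2 to 679, 726 to 902.7 and 615.8 to 731.3 CPM, and myeloid genes (7 genes) to 66.0 to 81.8, 77.1 to 80.2, 99.1 to 108.8 and 80.1 to 103.2 CPM, both with the highest mean in CD8.1 T cells. *Ighm* made up most of the B cell sum (474.5 CPM in B6 CD4+ and 580.0 CPM in B6 CD8+ T cells), and the single genes of that list differed from the sum. In B6 CD4+ T cells 5 of the 7 B cell genes were called higher than in CD8+ T cells (median log2 fold change over the list 0.94), the side on which the squalene to cholesterol arm was higher, with means of 24.0 and 12.4 CPM for *Cd79a*, 15.5 and 7.25 CPM for *Ms4a1* and 42.6 and 21.0 CPM for *Igkc*. *Ighm* and *Cd79b* were called lower there. In CD8.1 T cells 3 of the 7 were called higher than in CD8.2 cells and 0 lower. Of the regulatory T cell list 6 of 7 and 7 of 7 genes were called higher in the same comparisons, of the cycling list 0 and 3 of 6, and of the myeloid list 1 and 2 of 7, with 1 myeloid gene lower in B6 CD4+ T cells. Genes of stromal, endothelial and red cells (6 genes) summed to 188.3 to 213.5, 117.8 to 134.4, 141.2 to 171.4 and 103.7 to 115.1 CPM. *Pecam1* made up most of this sum, with means of 190.5, 119.1, 148.4 and 108.5 CPM. Of the 5 tested genes of the list, 2 were called higher and 1 lower in B6 CD4+ than in CD8+ T cells. Within CD8Dual mice 2 were called higher and 0 lower in CD8.1 T cells. *Pdgfrb*, a stromal gene, stayed under 3 counts in every B6 CD4+ and CD8.1 sample. The part of these cells in the result was not tested.

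The mevalonate arm upstream gave few calls. None of its 7 genes was called in B6 mice, between CD8.1 and B6 CD4+ cells or between CD8.2 and B6 CD8+ cells. In CD8Dual mice 2 of the 7 were higher in CD8.1 T cells and none was lower, beside 14.9% and 13.8% of all tested genes. The median log2 fold change was 0.06 in B6 mice and 0.21 in CD8Dual mice. Its summed level was 81.7 to 94.5 CPM in B6 CD4+ T cells, 84.3 to 87.1 CPM in B6 CD8+ T cells, 85.8 to 105.6 CPM in CD8.1 T cells and 85.9 to 93.7 CPM in CD8.2 T cells, and the groups overlapped.

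The 2 called genes encode the kinases that phosphorylate mevalonate in succession. *Mvk* gave 10.8, 13.4 and 13.2 CPM in the B6 CD4+ samples, 10.5, 10.2 and 9.62 CPM in the B6 CD8+ samples, 13.1, 16.8 and 13.2 CPM in the CD8.1 samples and 8.73, 11.4 and 10.7 CPM in the CD8.2 samples. *Pmvk* reached 8.73, 8.92 and 10.7 CPM in the B6 CD4+ samples, 9.38, 9.53 and 9.33 CPM in the B6 CD8+ samples, 9.74, 12.8 and 12.8 CPM in the CD8.1 samples and 9.03, 8.61 and 8.95 CPM in the CD8.2 samples. CD8.1 samples lay above CD8.2 samples for both genes. *Mvk* was higher in CD8.1 cells than in CD8.2 cells (log2 fold change 0.49, SE 0.14, adjusted P = 0.0149), and so was *Pmvk* (log2 fold change 0.41, SE 0.13, adjusted P = 0.026). The call of *Pmvk* was lost in 6 of 18 alternative analyses and that of *Mvk* in 2. In B6 mice the log2 fold change of *Mvk* was 0.30 (adjusted P = 0.142) and that of *Pmvk* was 0.01 (95% confidence interval −0.27 to 0.28).

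The 5 genes not called were *Acat2* (which joins 2 acetyl-CoA), *Hmgcs1* (HMG-CoA synthase), *Mvd* (the decarboxylase), *Idi1* (the isomerase) and *Fdps* (farnesyl diphosphate synthase). *Hmgcs1* had 26.7 to 35.0 CPM in B6 CD4+, 29.9 to 33.4 CPM in B6 CD8+, 24.5 to 33.8 CPM in CD8.1 and 29.9 to 36.1 CPM in CD8.2 T cells, and its log2 fold change in B6 mice was −0.06 (95% confidence interval −0.324 to 0.209). *Idi1* and *Fdps* had log2 fold changes of 0.46 and 0.45 in B6 mice with no overlap between the groups, at an adjusted P of 0.0774 and 0.389. *Fdps* was the least expressed of the tested genes per kilobase of exon (0.310 to 0.535 CPM per kb in the group means), and the values of the 3 CD8.1 samples, 3.10, 2.61 and 1.04 CPM, were far apart. Shared sequence makes *Acat2*, *Idi1* and *Fdps* uncertain, with 39.1%, 25.3% and 26.2% of their 50-base stretches found in other annotated transcripts.

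Among the 5 genes of SREBP control, *Srebf2* and *Insig1* were called in B6 mice. *Srebf2* (chromosome 15, 82147181 to 82205379, plus strand) encodes the factor that turns on the sterol genes. *Srebf2* had 270.3, 251 and 223 CPM in the B6 CD4+ samples, 199, 194 and 153 CPM in the B6 CD8+ samples, 216, 233 and 247 CPM in the CD8.1 samples and 198, 203 and 192 CPM in the CD8.2 samples. The B6 CD8+ samples lay below the B6 CD4+ samples (log2 fold change 0.45, SE 0.10, adjusted P = 0.00335). CD8.2 samples lay below CD8.1 samples without passing the test (log2 fold change 0.23, SE 0.10, adjusted P = 0.0909).

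*Insig1* (chromosome 5, 28071363 to 28078662, plus strand) encodes a protein that retains SREBP2 and is itself a target of it. *Insig1* was measured at 30.2, 33.2 and 29.4 CPM in the B6 CD4+ samples, 22.7, 22.03 and 16.9 CPM in the B6 CD8+ samples, 33.8, 30.2 and 29.5 CPM in the CD8.1 samples and 22.6, 25.2 and 22.3 CPM in the CD8.2 samples. The groups did not overlap within either strain. *Insig1* was higher in B6 CD4+ T cells (log2 fold change 0.59, SE 0.11, adjusted P = 0.000879) and in CD8.1 T cells (log2 fold change 0.42, SE 0.11, adjusted P = 0.00964), the latter not without CD8.2 replicate 3 (adjusted P = 0.0582). *Srebf1*, *Scap* and *Insig2* were called in none of the comparisons. *Srebf1* had 92.6 to 118.6 CPM over the 12 samples, with log2 fold changes of −0.16 to −0.06 in the 4 comparisons between groups.

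**Figure D4:**
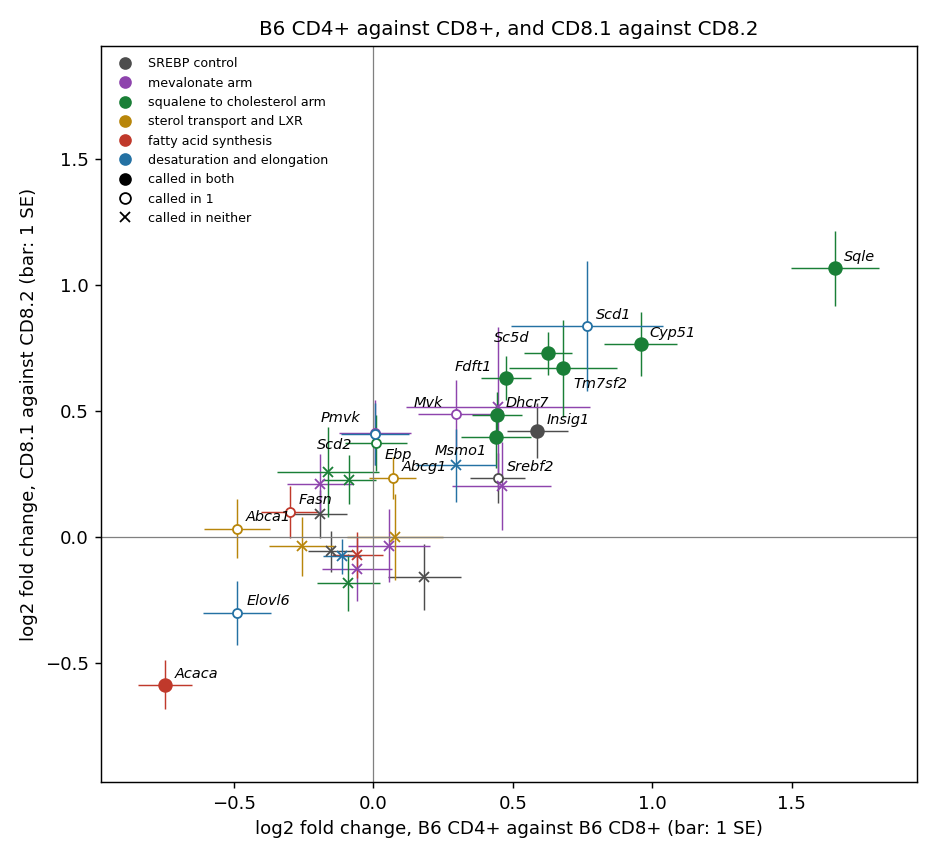
Log2 fold change of the 35 tested genes between B6 CD4+ and CD8+ T cells (horizontal axis) and between CD8.1 and CD8.2 cells (vertical axis), with bars of 1 SE and colours by role. Filled points were called in both comparisons, open points in 1 and crosses in neither. *Sqle* lies farthest to the upper right, at 1.66 and 1.06, and *Acaca* to the lower left, at −0.75 and −0.59.

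The fatty acid synthesis genes did not follow the sterol genes. These are *Acly*, which makes cytosolic acetyl-CoA from citrate, *Acaca*, which carboxylates it to malonyl-CoA and sets the pace of the pathway, and *Fasn*, the synthase that builds palmitate. In B6 mice 2 of the 3 were lower in CD4+ than in CD8+ T cells, beside 11.7% of all tested genes. None was higher, beside 11.4%. In CD8Dual mice 1 was lower in CD8.1 T cells, beside 13.8% of all tested genes. Their summed level was 494.8 to 538.7 CPM in B6 CD8+ T cells and 369.2 to 478.9 CPM in the other samples, without overlap.

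*Acaca* (chromosome 11, 84129672 to 84401651, plus strand) gave the clearest of these differences. *Acaca* stood at 33.8, 30.8 and 28.8 CPM in the B6 CD4+ samples, 50.4, 52.2 and 53.9 CPM in the B6 CD8+ samples, 22.9, 27.8 and 27.8 CPM in the CD8.1 samples and 36.2, 39.3 and 42.5 CPM in the CD8.2 samples. The order of the groups was B6 CD8+, CD8.2, B6 CD4+ and CD8.1 from high to low, with no overlap. *Acaca* was lower in B6 CD4+ than in CD8+ T cells (log2 fold change −0.75, SE 0.10, adjusted P = 2.87e-05), in CD8.1 cells than in CD8.2 cells (log2 fold change −0.59, SE 0.10, adjusted P = 0.000336) and in CD8.2 cells than in B6 CD8+ cells (log2 fold change −0.41, SE 0.10, adjusted P = 0.0173). The call between CD8.2 and B6 CD8+ cells was lost in 3 of 18 alternative analyses. Between CD8.1 and B6 CD4+ cells the log2 fold change of *Acaca* was −0.25 (adjusted P = 0.108). Of its 50-base stretches, 30.4% are shared, mainly with *Gm5182*. A list of 7 memory or activation genes ran from 127.4 to 161.7 CPM in B6 CD4+, 1301 to 1657 CPM in B6 CD8+, 330 to 375.4 CPM in CD8.1 and 881 to 915.4 CPM in CD8.2 T cells. Like *Acaca*, the sum was highest in B6 CD8+ and next in CD8.2 T cells, but *Ly6c2* and *Il2rb* carried it, with means of 764.8 and 473.3 CPM in B6 CD8+ T cells. *Cxcr3* (means 116.7 and 107.1 CPM) and *Tbx21* (33.0 and 14.5 CPM) were likewise highest in B6 CD8+ and next in CD8.2 T cells. *Cd44*, *Klrg1* and *Gzmk* had another order. *Cd44* was highest in CD8.1 T cells (mean 72.0 CPM), with 55.2 CPM in CD8.2, 51.0 CPM in B6 CD8+ and 35.1 CPM in B6 CD4+ T cells. *Klrg1* had a mean of 9.80 CPM in CD8.1 T cells and under 3 counts in each B6 CD8+ sample. Of the 7 genes, 5 were called lower and 1 higher in B6 CD4+ than in CD8+ T cells. Within CD8Dual mice 4 were lower and 2 higher in CD8.1 T cells. The part of such cells in the *Acaca* difference was not tested.

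*Fasn* gave 186, 159.8 and 173 CPM in the B6 CD4+ samples, 204, 194 and 241 CPM in the B6 CD8+ samples, 131, 165 and 166 CPM in the CD8.1 samples and 136, 152 and 145 CPM in the CD8.2 samples. B6 CD8+ T cells had the highest level of *Fasn*, the CD8Dual groups overlapped, and 7 of 18 alternative analyses lost the call in B6 mice. It was lower in B6 CD4+ than in CD8+ T cells (log2 fold change −0.30, SE 0.10, adjusted P = 0.0472) and in CD8.2 cells than in B6 CD8+ cells (log2 fold change −0.57, SE 0.10, adjusted P = 0.00397), and it was not called between CD8.1 and CD8.2 cells (log2 fold change 0.10, adjusted P = 0.511). *Acly* was called in none of the comparisons and, with 44.4 to 47.3 CPM per kb of exon in the group means, was expressed at a level per length that only *Elovl5* matched among the 36 genes.

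The desaturases and elongases each behaved differently. *Scd1* (chromosome 19, 44394455 to 44407879, minus strand) encodes stearoyl-CoA desaturase, which makes oleate. *Scd1* reached 11.3, 11.3 and 12.9 CPM in the B6 CD4+ samples, 8.597, 6.11 and 6.21 CPM in the B6 CD8+ samples, 26.9, 27.8 and 16.8 CPM in the CD8.1 samples and 15.4, 18 and 7.38 CPM in the CD8.2 samples. The values within CD8.1 and within CD8.2 T cells spread widely, and CD8.2 replicate 3 lay within the range of the B6 CD8+ samples. *Scd1* was higher in CD8.1 cells than in B6 CD4+ cells (log2 fold change 1.01, SE 0.26, adjusted P = 0.0196), in CD8.2 cells than in B6 CD8+ cells (log2 fold change 0.94, SE 0.27, adjusted P = 0.047) and in CD8.1 cells than in CD8.2 cells (log2 fold change 0.84, SE 0.26, adjusted P = 0.0237). Its B6 groups did not overlap, with a log2 fold change of 0.76 that missed the threshold (adjusted P = 0.0562). The difference between CD8.1 and CD8.2 cells was not called without CD8.2 replicate 3, the lowest sample, where the log2 fold change was 0.51 (adjusted P = 0.0917), and 10 of 18 alternative analyses lost the call between CD8.2 and B6 CD8+ cells. The call between CD8.1 and CD8.2 cells was also lost without CD8.1 replicate 1 or 2 and with only the groups compared in the fit. That between CD8.1 and B6 CD4+ cells was lost in 3 of 18 alternative analyses. Genes of fat cells, in which *Scd1* is abundant, were looked up after these values were seen, and *Plin1* had 0 counts in all samples, while *Adipoq* had at most 13.

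*Scd2* encodes a second such desaturase, the form found in most tissues other than liver. *Scd2* had 135, 143 and 161 CPM in the B6 CD4+ samples, 139, 137 and 162 CPM in the B6 CD8+ samples, 159, 188 and 131 CPM in the CD8.1 samples and 106, 134 and 120.5 CPM in the CD8.2 samples. CD8.1 replicate 3 lay within the CD8.2 range and the B6 groups overlapped. *Scd2* was higher in CD8.1 cells than in CD8.2 cells (log2 fold change 0.41, SE 0.12, adjusted P = 0.0215), and the call was lost without CD8.2 replicate 3. In B6 mice its log2 fold change was 0.01 (95% confidence interval −0.253 to 0.266).

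*Elovl6* (chromosome 3, 129532355 to 129638495, plus strand) encodes the elongase that takes palmitate to stearate. *Elovl6* was measured at 14.1, 12.5 and 16.1 CPM in the B6 CD4+ samples, 19.1, 20.1 and 20.7 CPM in the B6 CD8+ samples, 10.6, 9.95 and 9.83 CPM in the CD8.1 samples and 13.4, 10.2 and 13.6 CPM in the CD8.2 samples. B6 CD8+ T cells were highest and CD8.1 T cells held 2 of the 3 lowest samples. *Elovl6* was lower in B6 CD4+ than in CD8+ T cells (log2 fold change −0.49, SE 0.12, adjusted P = 0.00782), in CD8.1 cells than in B6 CD4+ cells (log2 fold change −0.49, SE 0.13, adjusted P = 0.0204) and in CD8.2 cells than in B6 CD8+ cells (log2 fold change −0.68, SE 0.12, adjusted P = 0.00367). The call between CD8.1 and B6 CD4+ cells was lost in 5 of 18 alternative analyses. Within CD8Dual mice the groups overlapped at CD8.2 replicate 2 and the difference was not called (log2 fold change −0.30, adjusted P = 0.0882).

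*Elovl5* encodes the elongase of polyunsaturated fatty acids and was, at 43.0 to 53.2 CPM per kb in the group means, among the most expressed of the 36 genes. *Elovl5* stood at 146, 152 and 155 CPM in the B6 CD4+ samples, 165, 162 and 163 CPM in the B6 CD8+ samples, 187, 172 and 174 CPM in the CD8.1 samples and 173, 190.2 and 199 CPM in the CD8.2 samples. The CD8Dual samples lay above the B6 samples throughout. The difference was small, and it was called between CD8.1 and B6 CD4+ cells (log2 fold change 0.23, SE 0.07, adjusted P = 0.0402), a call that 15 of 18 alternative analyses lost. *Fads1*, which desaturates the same fatty acids, was called in none of the comparisons, with log2 fold changes of 0.13 to 0.30.

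Of the 4 genes of sterol transport and LXR, the exporters were called. *Abca1* (chromosome 4, 53030787 to 53159895, minus strand) encodes the pump that passes cholesterol to apolipoproteins. *Abca1* gave 32.9, 26.6 and 34.8 CPM in the B6 CD4+ samples, 39.2, 42.4 and 50.8 CPM in the B6 CD8+ samples, 32.3, 32.9 and 40.03 CPM in the CD8.1 samples and 34.01, 34.6 and 34.3 CPM in the CD8.2 samples. B6 CD8+ samples were above all others except that of CD8.1 replicate 3, which exceeded B6 CD8+ replicate 1. *Abca1* was lower in B6 CD4+ than in CD8+ T cells (log2 fold change −0.49, SE 0.12, adjusted P = 0.00646), and its log2 fold change between CD8.1 and CD8.2 cells was 0.03 (95% confidence interval −0.221 to 0.285).

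*Abcg1* encodes the pump that passes cholesterol to high-density lipoproteins. *Abcg1* reached 103, 94.6 and 108 CPM in the B6 CD4+ samples, 95.9, 91.8 and 103 CPM in the B6 CD8+ samples, 108, 125 and 119 CPM in the CD8.1 samples and 91.3, 104 and 104 CPM in the CD8.2 samples. The CD8.1 samples were the highest, just above the top B6 CD4+ sample. *Abcg1* was higher in CD8.1 cells than in CD8.2 cells (log2 fold change 0.23, SE 0.08, adjusted P = 0.0496), and 12 of 18 alternative analyses lost this call. *Nr1h2*, the gene of LXRβ, and *Stard4*, which encodes a carrier of cholesterol between membranes, were called in none of the comparisons.

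Counted over all roles, 9 of the 35 tested genes were higher and 4 lower in B6 CD4+ than in CD8+ T cells, and 14 were higher and 1 lower in CD8.1 cells than in CD8.2 cells. Among all tested genes 11.4% were called higher and 11.7% lower in B6 mice, and 14.9% and 13.8% in CD8Dual mice. The share of lower genes in B6 mice was thus near that of all genes. Both comparisons called 9 genes, all in the same direction: *Insig1*, *Fdft1*, *Sqle*, *Cyp51*, *Tm7sf2*, *Msmo1*, *Sc5d* and *Dhcr7*, which were higher, and *Acaca*, which was lower. They make up 69.2% of the 13 genes called in B6 mice and 60% of the 15 called in CD8Dual mice. Over all tested genes, 68.5% of those called in B6 mice and 55.0% of those called in CD8Dual mice were called in both in the same direction, so the agreement of the 35 genes between the strains was near that of other genes. Without CD8.2 replicate 3 the genes called in CD8Dual mice numbered 7.

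Whether the difference between the populations itself differed between the strains was tested as an interaction, the log2 fold change in CD8Dual mice minus that in B6 mice. None of the 35 genes was called by edgeR's quasi-likelihood test, and 8 had an unadjusted P under 0.05. DESeq2's Wald test and limma's voom also called 0. Among all tested genes, 1.58% were called with a positive and 0.29% with a negative interaction. The estimate for *Sqle* was −0.59 (95% confidence interval −1.051 to −0.131, adjusted P = 0.245), for *Abca1* 0.52 (0.164 to 0.878, adjusted P = 0.176) and for *Fasn* 0.40 (0.088 to 0.709, adjusted P = 0.245). Without CD8.1 replicate 1, 6 genes were called: *Scap* (0.37), *Abca1* (0.56), *Nr1h2* (0.36) and *Fasn* (0.49) with a positive and *Insig2* (−0.53) and *Sqle* (−0.75) with a negative interaction, at adjusted P values of 0.0207 to 0.0492. The result for these 6 genes thus rested on that sample, without which 1356 of all genes were called in place of 245.

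Between the strains fewer of the genes were called, in comparisons that use the same samples as those within the strains. Between CD8.1 and B6 CD4+ cells 5 of the 35 genes were higher (*Fdft1*, *Sqle*, *Ebp*, *Scd1* and *Elovl5*) and *Elovl6* was lower, beside 6.94% of all tested genes called higher and 5.82% lower. Between CD8.2 and B6 CD8+ cells 3 were higher (*Sqle*, *Cyp51* and *Scd1*) and 3 lower (*Acaca*, *Fasn* and *Elovl6*), beside 3.29% and 4.66%. In the squalene to cholesterol arm the log2 fold change was positive for 11 of 11 genes in the former comparison and for 10 of 11 in the latter, with medians of 0.27 and 0.14, beside 0.002 and −0.004 over all genes. The counts moved with the samples. The 6 genes called between CD8.1 and B6 CD4+ cells became 1 without B6 CD4+ replicate 1, B6 CD4+ replicate 2 or CD8.1 replicate 2, and 9 without CD8.1 replicate 1. The 6 called between CD8.2 and B6 CD8+ cells became 3 without B6 CD8+ replicate 2 or CD8.2 replicate 2, and 11 without CD8.1 replicate 1, a sample that enters this comparison only through the shared estimate of the spread.

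**Figure D5:**
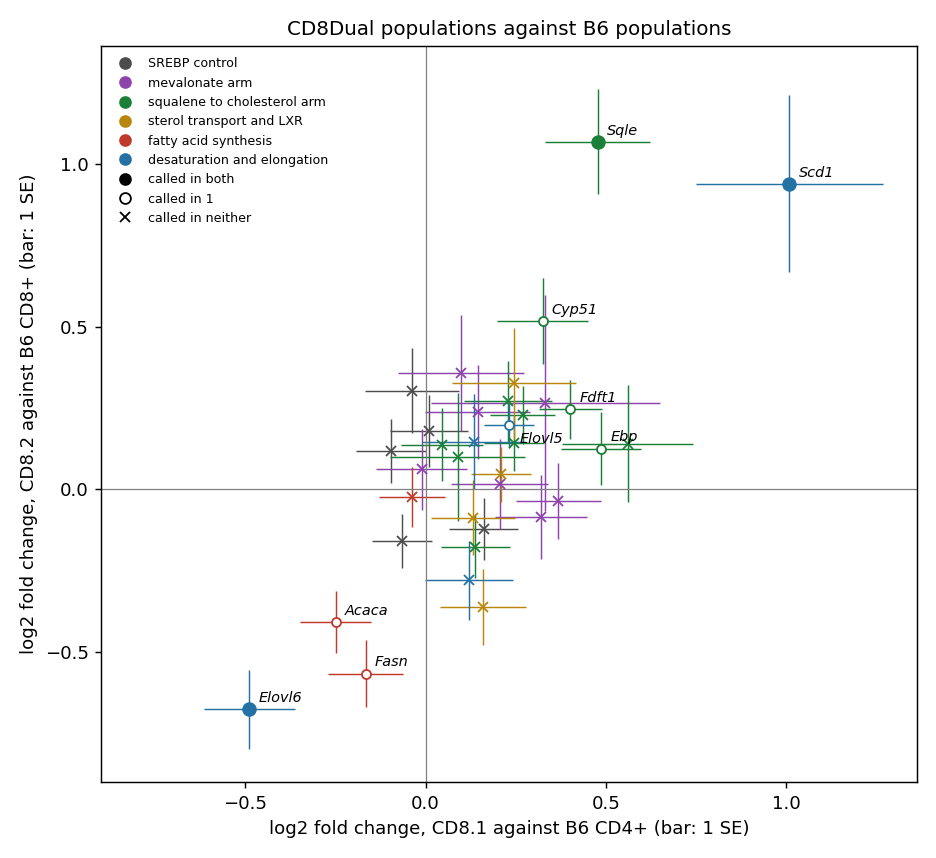
Log2 fold change of the 35 tested genes between CD8.1 and B6 CD4+ cells (horizontal axis) and between CD8.2 and B6 CD8+ cells (vertical axis), with bars of 1 SE and colours by role. Filled points were called in both comparisons, open points in 1 and crosses in neither. *Sqle* and *Scd1* lie apart at the upper right and *Elovl6* at the lower left, at −0.49 and −0.68.

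Other genes of the same pathways were described from 6 lists of 56 genes, of which 50 were tested. In B6 mice 9 were higher and 9 lower in CD4+ T cells, and in CD8Dual mice 10 were higher and 8 lower in CD8.1 T cells. That is 36% of the 50 in each comparison, where 11.4% of all tested genes were called higher and 11.7% lower in B6 mice and 14.9% higher and 13.8% lower in CD8Dual mice. Their log2 fold changes had a median of 0.08 in B6 mice and 0.01 in CD8Dual mice. *Coq2*, which uses isoprenoids to make ubiquinone, was lower in B6 CD4+ and CD8.1 T cells (log2 fold change −0.24, adjusted P = 0.031, and −0.26, adjusted P = 0.0193).

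In the uptake and storage list, *Lipa*, the lysosomal lipase that frees cholesterol from its esters, was higher in B6 CD4+ T cells (log2 fold change 0.64, SE 0.07, adjusted P = 2.38e-06) and in CD8.1 T cells (log2 fold change 0.36, SE 0.06, adjusted P = 0.000752). *Soat1*, which esterifies cholesterol for storage, was higher in CD8.1 cells than in B6 CD4+ cells (log2 fold change 0.68, SE 0.12, adjusted P = 0.00244) and in CD8.2 cells than in B6 CD8+ cells (log2 fold change 0.42, SE 0.12, adjusted P = 0.0454). LIPA thus splits cholesterol esters and SOAT1 forms them.

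In the fatty acid list, *Acsl3*, which activates fatty acids for use, was higher in B6 CD4+ T cells (log2 fold change 1.64, SE 0.16, adjusted P = 1.07e-06) and in CD8.1 T cells (log2 fold change 0.65, SE 0.15, adjusted P = 0.00433). *Elovl7*, an elongase of saturated fatty acids, was lower in B6 CD4+ T cells (log2 fold change −1.26, SE 0.20, adjusted P = 0.000207) and in CD8.1 T cells (log2 fold change −1.61, SE 0.21, adjusted P = 3.53e-05), the same side as *Elovl6* in B6 mice. *Slc25a1*, the mitochondrial carrier that exports the citrate used by ACLY, was higher in B6 CD4+ T cells (log2 fold change 0.29, SE 0.10, adjusted P = 0.0403) and in CD8.1 T cells (log2 fold change 0.48, SE 0.10, adjusted P = 0.00171). *Mid1ip1*, whose product helps acetyl-CoA carboxylase to polymerize, was lower in B6 CD4+ T cells (log2 fold change −0.63, SE 0.10, adjusted P = 0.000293). *Fabp5*, a fatty acid carrier, was higher in CD8.1 T cells (log2 fold change 1.05, SE 0.25, adjusted P = 0.00492). Of 7 tested genes of lipid oxidation, taken as a contrast, 1 was higher and 1 lower in B6 mice, and 1 was lower in CD8Dual mice.

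Since the sterol genes are known to share SREBP and NF-Y sites, the promoters of the 36 genes were searched for 3 motifs. RefSeq windows on GRCm38.p6, from 250 bases before to 50 bases after the start of a transcript, were found for 28 of the 36 genes, and the motifs were sought on both strands. CCAAT, the NF-Y box, was in a window of 21 of the 28 genes (75.0%), against 43.2% of 8871 tested genes with a window and 37.4% of all 32851 windows. Among genes with a window, it was in all 10 that were called higher in B6 CD4+ or CD8.1 T cells within a strain. It was in 1 of the 4 that were called lower and in 10 of the other 14. The 1 lower gene with it was *Fasn*, which had 3 matches. The only window of *Acaca*, also called lower, began at 84195188, inside a gene that starts at 84129672, so the start of that gene was not searched. *Sqle*, *Fdft1*, *Scd1*, *Scd2* and *Abcg1* were also called higher but had no window and were not searched. GGGCGG, a GC box, was in 22 of the 28 (78.6%), against 69.0% of tested genes. TCACNCCAC, taken as the sterol regulatory element, was in 1 window, that of *Hmgcs1* on chromosome 13, against 1.39% of tested genes. Elements that differ from these letters were not sought, so a window without a match may still hold such an element. Genes with several starts have several windows and so more chances of a match, and a window of this length holds only part of a promoter.

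The first 3 windows that follow belong to genes called higher in both strains. The last, that of *Elovl6*, called lower in B6 CD4+ T cells, holds neither CCAAT nor GGGCGG, unlike that of *Fasn*, which was also called lower and holds CCAAT. Each is read along the gene's own strand, and capitals mark a match to CCAAT or GGGCGG on either strand (ATTGG and CCGCCC on the other).
Cyp51, chr5:4104648-4104947, minus strand: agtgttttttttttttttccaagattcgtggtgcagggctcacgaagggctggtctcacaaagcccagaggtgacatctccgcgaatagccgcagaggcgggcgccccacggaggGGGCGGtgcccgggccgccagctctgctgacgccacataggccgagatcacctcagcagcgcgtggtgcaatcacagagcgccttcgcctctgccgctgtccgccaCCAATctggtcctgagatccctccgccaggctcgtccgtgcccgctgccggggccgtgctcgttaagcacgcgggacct
Sc5d, chr9:42264251-42264550, minus strand: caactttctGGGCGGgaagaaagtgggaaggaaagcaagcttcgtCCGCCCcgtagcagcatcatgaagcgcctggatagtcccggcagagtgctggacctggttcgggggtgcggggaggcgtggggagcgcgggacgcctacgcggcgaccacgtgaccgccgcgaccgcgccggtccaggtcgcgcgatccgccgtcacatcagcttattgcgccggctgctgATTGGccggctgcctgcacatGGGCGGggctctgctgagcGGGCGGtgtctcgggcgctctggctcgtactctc
Insig1, chr5:28071162-28071461, plus strand: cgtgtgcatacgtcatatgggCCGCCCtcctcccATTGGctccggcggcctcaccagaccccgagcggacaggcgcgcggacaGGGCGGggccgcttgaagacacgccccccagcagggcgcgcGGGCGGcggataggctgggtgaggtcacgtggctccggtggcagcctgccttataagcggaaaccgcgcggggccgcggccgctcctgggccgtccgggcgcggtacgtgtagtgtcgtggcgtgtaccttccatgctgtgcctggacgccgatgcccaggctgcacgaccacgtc
Elovl6, chr3:129532136-129532435, plus strand: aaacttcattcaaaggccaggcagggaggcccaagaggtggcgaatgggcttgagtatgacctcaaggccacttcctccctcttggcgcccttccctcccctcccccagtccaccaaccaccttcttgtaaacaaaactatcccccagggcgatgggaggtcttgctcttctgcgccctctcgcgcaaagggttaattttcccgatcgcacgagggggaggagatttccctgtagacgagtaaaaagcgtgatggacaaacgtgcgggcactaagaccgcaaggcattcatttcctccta

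*Cyp51* had 1 CCAAT box, at position −29 from its start, and 1 GC box, *Sc5d* had 1 CCAAT box and 4 GC boxes, *Insig1* had 1 CCAAT box and 3 GC boxes, and *Elovl6* had 0 of either. The only match to TCACNCCAC, in capitals here, lay within chr13:119690204-119690233 on the plus strand. It was in the promoter of a gene whose level did not pass the test in any comparison. Other forms of the sterol regulatory element were not sought in any window.
Hmgcs1: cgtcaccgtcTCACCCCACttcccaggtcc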

How the data were processed

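RNA-seq of 12 samples of pooled, sorted LN T cells was analysed, 3 for each of the CD4+ and CD8+ groups of B6 mice and the CD8.1 and CD8.2 groups of CD8Dual mice. The authors extracted total RNA, made libraries with a low-input kit that copies whole transcripts, sequenced read pairs, aligned these to mm10 with STAR and counted them with RSEM. The deposited file holds these raw counts as whole numbers for 49585 genes, with no normalization by the authors. Tool versions, the annotation release and the use of strand are not given in the sources used here, so overlapping and near-identical genes are named as uncertain. Samples were grouped by their labels, and 0 columns were left unmapped.

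The test used edgeR 4.0.16 under R 4.3.3 (TMM, filterByExpr, glmQLFit and glmQLFTest). All 12 samples entered 1 model with a mean for each group, and P values were adjusted by the Benjamini-Hochberg method over the 13118 genes that passed the filter, with a call at 0.05. The study's own definition of a changed gene, a fold over 5 and an unadjusted P under 0.05, was an alternative. The SE was obtained from the log2 fold change and the square root of F. The biological coefficient of variation was 11.2%. The code was tested on simulated data. Total counts of 18667474 to 37110502 set the precision.

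All 36 genes are described, those called in any comparison with their value in every sample, and other pathway genes are given by counts, with values only for called ones. The values of 1 gene of these lists, which the counts include, are not reported here. The genes, lists and tests were chosen with earlier results of these data known. Alternatives were DESeq2 1.42.0 (size factors, Wald test), limma 3.58.1 (voom), no filter, only the groups compared, the replicate number as a block, the study's definition and each sample left out. The replicate numbers of the labels are shared by the groups. Between the CD4+ and CD8+ samples of B6 mice, deviations from the group means correlated within each number at 0.126, 0.138 and 0.257. The highest correlation between unlike numbers was 0.0999, so the samples may be paired. The main model took no account of such pairing. It entered only the replicate block, which called 14 genes in place of 13 there. Gene positions and shared sequence came from GENCODE M21 on GRCm38, in which 43749 of the 49585 gene identifiers had the same version, and promoters from RefSeq on GRCm38.p6. Python 3.11.15 and matplotlib 3.10.9 drew the figures.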

Additional observations from a re-analysis of the deposited data

Results flagged for a closer look

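Whether the difference between the populations itself differed between the strains was tested as the interaction in edgeR's quasi-likelihood fit, with Benjamini-Hochberg adjustment over all genes. Of the 35 tested sterol and fatty acid genes 0 were called, 8 had an unadjusted P under 0.05, and 6 were called without CD8.1 replicate 1. Of the 50 other pathway genes 1 was called with a negative and 1 with a positive interaction, where 0.29% and 1.58% of all tested genes were called, so the count is no result about these lists. *Acsl3*, an acyl-CoA synthetase, had an interaction of −0.996 on the log2 scale (SE 0.21, adjusted P = 0.0227). Its mean was 9.22, 2.94, 8.52 and 5.43 CPM in CD4+ and CD8+ T cells of B6 mice and in CD8.1 and CD8.2 cells (SD 1.49, 0.179, 0.770 and 0.494, n = 3 each), so that it was higher in CD8.2 cells than in B6 CD8+ cells (log2 fold change 0.89, adjusted P = 0.00352) and was not called between CD8.1 and B6 CD4+ cells (log2 fold change −0.11, adjusted P = 0.656). *Gramd1b*, which encodes a carrier of cholesterol from the plasma membrane, had an interaction of 0.581 (SE 0.14, adjusted P = 0.0427). Its mean was 25.7, 42.4, 30.0 and 33.1 CPM in the same groups (SD 1.84, 1.13, 4.16 and 1.20), and it was lower in B6 CD4+ than in CD8+ T cells (log2 fold change −0.72, adjusted P = 4.37e-05) and not called between CD8.1 and CD8.2 cells (log2 fold change −0.14, adjusted P = 0.297).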

How the results depend on the processing

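Of 40 calls of a single gene in a comparison between groups, 19 held in all 18 alternatives, 21 were lost in some and 0 changed sign. With the study's definition of a fold over 5, 0 genes were called in each of the 4 comparisons between groups, since no fold of the 36 genes reached that size. With only the groups compared in the fit, 1 gene was called between CD8.1 and B6 CD4+ cells in place of 6, and 13 between CD8.2 and B6 CD8+ cells in place of 6, the spread then being estimated from fewer samples. With no filter on low counts, the interaction was called for 1 gene, *Abca1* (0.51, adjusted P = 0.0352), and the cause was not tested.

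With each sample left out in turn, the genes called numbered 11 to 16 in B6 mice, 7 to 16 in CD8Dual mice, 1 to 9 between CD8.1 and B6 CD4+ cells, 3 to 11 between CD8.2 and B6 CD8+ cells and 0 to 6 for the interaction. In CD8Dual mice the count of 15 fell to 7 without CD8.2 replicate 3 and to 8 without CD8.2 replicate 1 or CD8.1 replicate 2. The highest count in each comparison came without CD8.1 replicate 1. DESeq2's size factors changed none of the 40 calls, its Wald test none and limma's voom 1.

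Outside the B6 groups, same-numbered samples did not deviate together: the correlations were −0.00388 to 0.119 for CD8.1 and CD8.2, −0.197 to −0.0316 for CD8.1 and B6 CD4+ and −0.101 to −0.00411 for CD8.2 and B6 CD8+ T cells. With the replicate block, 16 genes were called in CD8Dual mice in place of 15, 4 between CD8.1 and B6 CD4+ cells in place of 6 (*Sqle* and *Elovl5* were lost), 6 between CD8.2 and B6 CD8+ cells and 0 for the interaction. Only *Fads2* was left untested for low counts, and its 5 counts in all lie near the 3 counts taken as the floor. *Fdps* was also low, with 22 to 65 counts per sample, and its log2 fold change in B6 mice had an SE of 0.33, so a difference there may have been missed.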
